A study of Rattus norvegicus with 12 samples.

Results

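Oligodendrocyte miR-219 and miR-338 were read in medial entorhinal cortex (MEC) of Long Evans rats by 3 assays of a TaqMan low density card, named miR-219, rno-miR-219-1-3p and miR-338-3p. They were chosen by assay name and were 3 of the 375 miRNA assays on the card. Stellate cells (5 samples) were sorted from pups that received the fluorescent dye DiO in the dentate gyrus, on both sides, on postnatal day 2; the dye travels back along the axon, so that cells projecting to the dentate gyrus take it up. Non-stellate cells (5 samples) were the DiO-negative cells of the same dissociated MEC, sorted by FACS on postnatal day 4 or 5 together with the stellate cells, and are defined by the lack of dye and not by a cell type. Tissue (2 samples) was whole dissected MEC of rats aged postnatal day 23, without injection, dissociation or sorting, and the labels call it a control for comparing technologies. No group carried a genetic change. Tissue and sorted cells differed in age, preparation, RNA kit and input at once, and these cannot be told apart. Sorted cells of both hemispheres were pooled. The description field of non-stellate samples 3 and 5 reads as labelled, against their title, source and fluorescence, which place them among the non-stellate cells.

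MicroRNAs are short RNAs cut from a hairpin precursor that pair, mainly through their seed (bases 2 to 8), with messenger RNAs and lower their output. miR-219 and miR-338 are enriched in the oligodendrocyte lineage, the cells that make myelin, and both rise as oligodendrocyte precursors mature; they repress factors that keep precursors dividing. Most myelin of the rodent cortex forms after birth. In unsorted tissue the level of such a miRNA depends on the share of cells of the lineage and on the amount per cell, and in bulk samples fewer cells of a type and less RNA per cell cannot be told apart.

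The mature sequences are shown because the seeds and arms separate the assays, with the seed in capitals. They are the RefSeq rat entries (build GRCr8) matched by name; the card uses older names, and rno-miR-219-2-3p, the fourth assay of these hairpins on the card and not a member, is shown for comparison.
miR-219 (rno-miR-219a-5p): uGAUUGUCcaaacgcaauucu
rno-miR-219-1-3p (rno-miR-219a-1-3p): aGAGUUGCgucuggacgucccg
rno-miR-219-2-3p (rno-miR-219a-2-3p): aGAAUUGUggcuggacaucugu
miR-338-3p (rno-miR-338-3p): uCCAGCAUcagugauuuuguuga
The 4 seeds differ from each other, and among the 693 mature rat miRNAs of the table each occurred in 1 entry. The 3p arms of the miR-219 hairpins matched at 15 of 22 positions when aligned without gaps, with the differences G4A, C8U, U10G, G17A, C20U, C21G and G22U (positions from the 5′ end, base of rno-miR-219a-1-3p first).

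The hairpins are shown because they explain what each assay can read, with the mature arms listed above in capitals. The 5p sequence was found in both miR-219 hairpins, so the miR-219 assay can read the sum of 2 loci, whereas each 3p assay is named for 1 of them.
Mir219a1 (chr20:4831580-4831689, plus strand): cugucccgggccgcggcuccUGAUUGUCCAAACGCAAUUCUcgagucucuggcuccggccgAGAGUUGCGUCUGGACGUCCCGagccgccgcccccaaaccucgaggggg
Mir219-2 (chr3:33516504-33516599, minus strand): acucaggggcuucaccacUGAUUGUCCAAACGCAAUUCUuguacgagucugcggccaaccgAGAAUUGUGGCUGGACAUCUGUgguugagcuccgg
Mir338 (chr10:105796342-105796407, minus strand): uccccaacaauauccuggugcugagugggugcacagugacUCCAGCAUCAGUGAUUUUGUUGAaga
In the GRCr8 annotation Mir219a1 lies between the genes Hsd17b8 and Ring1 and overlaps neither. Mir219-2 overlaps Cercam, the long non-coding RNA gene LOC120101515 and Mir2964. Mir338 overlaps Aatk, the gene of a kinase of the nervous system, and Mir3065. The gene table used gives gene spans, and exon or intron was not assigned here.

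Levels are given as Ct, the PCR cycle at which a well crosses the detection threshold, a log2 scale that falls by 1 cycle for each doubling at full PCR efficiency; a well listed at 40 was undetermined. Ct says nothing of molecule number, and the count of determined wells stands in for depth. Of the 375 miRNA assays, 234 to 260 were determined in stellate samples, 203 to 241 in non-stellate samples and 292 to 302 in tissue. The mean of the 4 wells of U6, the small nuclear RNA used for scaling, lay at Ct 16.5 to 19.0 in stellate cells, 17.7 to 20.2 in non-stellate cells and 15.6 to 16.0 in tissue. The 176 assays determined in all 12 samples had a median Ct of 28.0 to 29.5, 28.9 to 30.9 and 23.7 in the same order, so U6 and the typical miRNA moved by unequal amounts between sorted cells and tissue. Values are therefore given as U6-scaled Ct (Ct minus the U6 mean of the sample), which the tests use, and as median-centred Ct (Ct minus the median of the 176 assays).

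miR-219, the 5p arm found in both miR-219 hairpins, was determined in 0 of 5 stellate samples, 2 of 5 non-stellate samples and both tissue samples. Its Ct was 31.5 in non-stellate sample 1 and 32.1 in non-stellate sample 3, and 25.1 and 25.6 in tissue. The other 8 sorted wells were undetermined. The tissue wells thus crossed the threshold about 6 cycles before the earlier of the sorted wells, and most sorted wells did not cross it.

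miR-338-3p showed the opposite distribution over the sorted groups at a later Ct. It was determined in 3 of 5 stellate samples, at Ct 34.961, 34.983 and 34.998 in samples 1, 2 and 5, and in 0 of 5 non-stellate samples. The tissue wells lay at 28.6 and 29.0. The 3 stellate wells spanned 0.037 cycles before and 1.67 cycles after U6 scaling. They lie just before Ct 35, and 142 of the 2976 determined miRNA wells (4.77%) had a Ct of 35 or later. In the 0.1 cycles before Ct 35 there were 24 determined wells, against 13 in the 0.1 cycles before that window and 16 in the 0.1 cycles after it.

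rno-miR-219-1-3p, the 3p arm of Mir219a1, was late in every group. In stellate samples 1, 2, 4 and 5 its Ct was 34.7, 36.7, 34.85 and 34.2, and sample 3 was undetermined. In non-stellate samples 1 to 5 it was 32.9, 35.4, 34.9, 36.0 and 34.5. The tissue wells read 34.998 and 34.996, inside the range of the sorted cells. Both lie in the 0.1 cycles before Ct 35, which held 24 determined wells of the card. Unlike the other members, rno-miR-219-1-3p was therefore no earlier in tissue than in sorted cells before scaling.

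The 3p arm of the other hairpin, rno-miR-219-2-3p, followed miR-219 in tissue, with Ct 25.4 and 25.7. In sorted cells it was determined in stellate samples 1 and 5 (34.6 and 31.7) and non-stellate samples 1 and 2 (34.7 and 32.7). Non-stellate sample 1 was the 1 sorted sample with all 3 miR-219 assays determined.

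**Figure D1:**
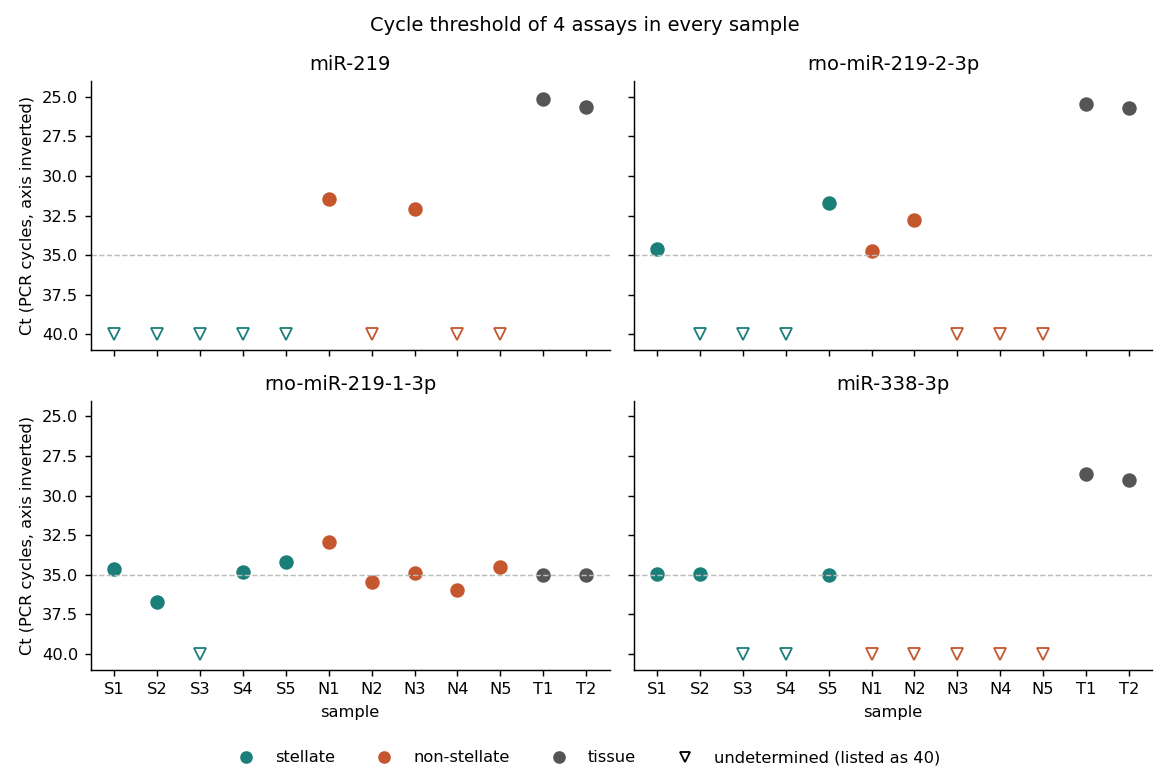
Ct of the 3 members and of rno-miR-219-2-3p in every sample (S, stellate; N, non-stellate; T, tissue; y axis inverted so that higher points are more abundant; dashed line at Ct 35; open triangles are undetermined wells, listed at 40). Tissue points of miR-219, rno-miR-219-2-3p and miR-338-3p stand at Ct 25.1 to 29.0, before every sorted well of the same assay, whereas those of rno-miR-219-1-3p stand at 34.997 on average, among the sorted wells.

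Whether the members differ between stellate and non-stellate cells was first read from the determined wells. For miR-219, 0 of 5 against 2 of 5 wells gave p = 0.444 by Fisher's exact test (two-sided), and for miR-338-3p, 3 of 5 against 0 of 5 gave p = 0.167. For rno-miR-219-1-3p, 4 of 5 against 5 of 5 wells gave p = 1 in the same exact test. Without non-stellate samples 3 and 5 miR-219 was determined in 0 of 5 against 1 of 3 wells. None of the 3 members thus differed in detection past the threshold of 0.05. Over all 375 assays, 89 were determined in more stellate than non-stellate samples, 25 in fewer and 261 in equal numbers. The split of miR-338-3p, 3 against 0, was shared by 4 assays in all, and that of miR-219, 0 against 2, by 2 assays.

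The limma fit took the assays with no more than 3 undetermined wells among the 10 sorted samples. They numbered 222 and held 1 of the 3 members, rno-miR-219-1-3p. Its U6-scaled Ct in stellate samples 1, 2, 4 and 5 was 17.84, 18.58, 16.97 and 17.68, with the undetermined well of sample 3 entering at 20.98. In non-stellate samples 1 to 5 it was 14.84, 17.69, 16.98, 17.46 and 14.26. Non-stellate samples 1 and 5 were the high ones, and the groups overlapped. The log2 difference, stellate minus non-stellate, was −2.16 ± 0.91 (SE, n = 5 and 5), with an unadjusted p of 0.0347 and an adjusted p of 0.587 in limma, and p = 0.0635 in the exact permutation test (two-sided). In this comparison 0 of 222 assays (0%) passed the adjusted threshold; 16 (7.21%) had an unadjusted p under 0.05, and rno-miR-219-1-3p was 1 of 2 (0.901%) that did so with a lower value in stellate cells. These counts were not stable: the 16 became 4 without stellate sample 2, 7 without stellate sample 4, 25 without stellate sample 5, 10 without non-stellate sample 3 and 7 without non-stellate sample 5. Without non-stellate samples 3 and 5 together it was 5, and the difference of rno-miR-219-1-3p was −1.75 with an unadjusted p of 0.107 in limma. Its unadjusted p also exceeded 0.05 without stellate sample 2 (0.0603), stellate sample 3 (0.0902), non-stellate sample 1 (0.0842) or non-stellate sample 5 (0.0883). The median difference over the 222 assays was 0.46. The undetermined well of stellate sample 3 carried part of the size: with it taken as missing the difference was −1.52.

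For the other members most wells hold no level: 8 of the 10 sorted wells of miR-219 and 7 of those of miR-338-3p enter the exact permutation test at 40 minus the sample's own scaling value, so its result mixes the few determined wells with the scaling of the samples. On the U6 scale the difference was −4.11 for miR-219 (p = 0.0556) and 2.19 for miR-338-3p (p = 0.0794, both two-sided exact, 5 against 5, where the smallest possible p is 0.00794). The miR-219 difference came from non-stellate samples 1 and 3, whose U6-scaled Ct was 13.39 and 14.13. After median centring it was −4.51 (exact p = 0.0238). The median Ct that sets the undetermined wells itself ran lower in stellate cells (28.0 to 29.5, against 28.9 to 30.9), so these p-values do not bear on miR-219 alone. The miR-338-3p difference turned to −0.81 (exact p = 0.254) when wells were capped at Ct 35, since every sorted well then stood at about 35 and the value is that of the U6 means alone.

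**Figure D2:**
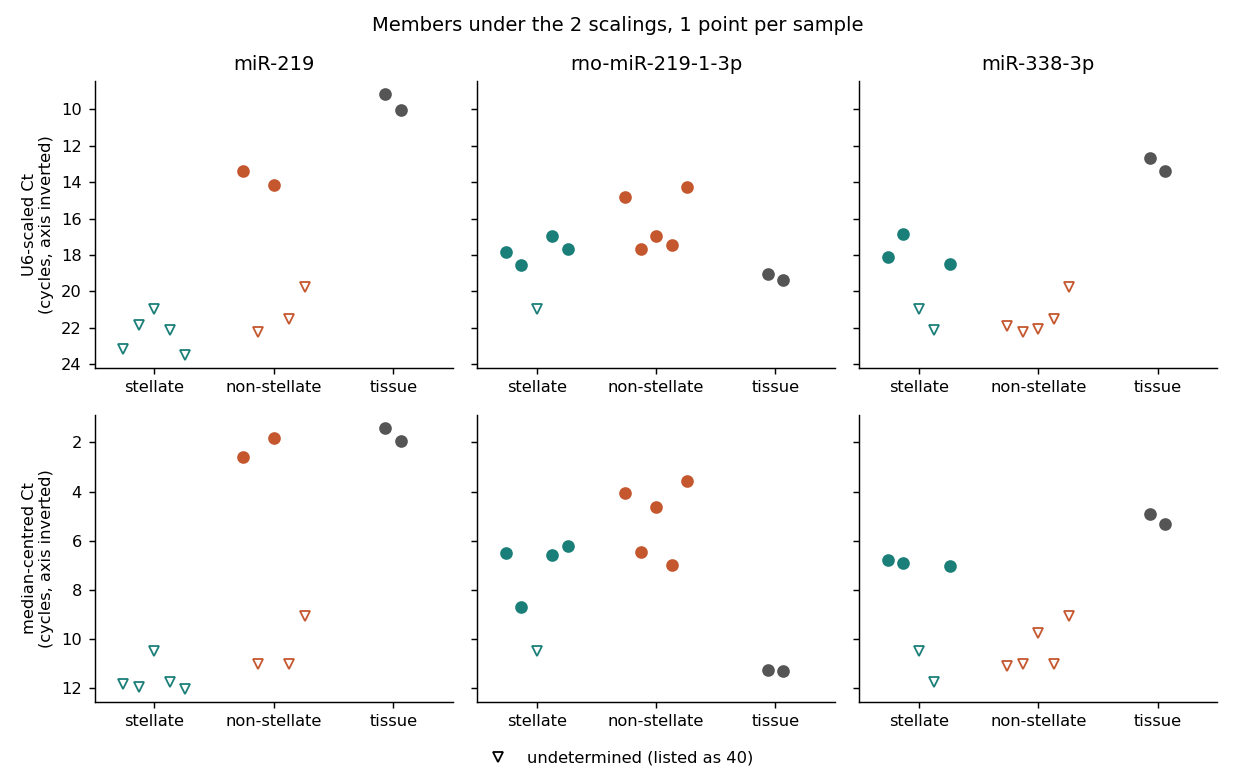
U6-scaled (top) and median-centred (bottom) Ct of the 3 members, 1 point per sample, y axis inverted, open triangles for undetermined wells entered at 40. Non-stellate samples 1 and 3 stand apart for miR-219, stellate samples 1, 2 and 5 are the determined sorted wells of miR-338-3p, and after median centring tissue lies beyond the sorted samples for rno-miR-219-1-3p.

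The comparison of tissue with the 10 sorted samples set MEC with all its cells, at the later age, against dissociated cells of pups. On U6-scaled Ct miR-219 stood at 9.15 and 10.04 in tissue, earlier than each of the 10 sorted samples. Against the 2 sorted samples with a determined well tissue was higher by 3.80 to 4.54 on the log2 scale, and against the 8 undetermined wells, set to Ct 35, by at least 5.17 to 8.90. With wells at 40 the mean difference was 10.67 (exact permutation p = 0.0152, the smallest that 2 against 10 samples can give). The main tests of tissue take the 10 sorted samples as independent, although both sorted fractions came from 5 biological replicates. That tissue exceeded all sorted samples held for 62.4% of the 306 assays determined in at least 2 of the 12 samples on this scale, so the order of the groups was that of most of the card. In a limma fit over these 306 assays, in which 59.2% were called higher in tissue and 1.31% lower, miR-219 had an adjusted p of 0.000987. The 8 undetermined wells enter this fit at 40 minus the sample's U6 mean, so its p-value does not rest on measured levels alone. With those wells missing the difference was 4.17 (exact permutation p = 0.333, where the smallest possible p is 0.167).

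After median centring miR-219 was at 1.41 and 1.94 in tissue, 2.60 in non-stellate sample 1 and 1.80 in non-stellate sample 3. Tissue and these determined sorted samples then overlapped, with differences of 0.13 to 0.93 between the tissue mean and each of them. The 8 undetermined samples remained lower than tissue by at least 2.39 to 5.36. Relative to the typical miRNA of the sample, miR-219 in these 2 non-stellate samples was thus near its tissue level, and in the other sorted samples it was below it.

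miR-338-3p was at 12.67 and 13.41 in tissue on the U6 scale, and at 18.14, 16.83 and 18.49 in stellate samples 1, 2 and 5. The tissue mean was higher than these by 3.79 to 5.46 and higher than the 7 undetermined wells by at least 1.73 to 4.23. With wells at 40 the mean difference was 7.37 (exact permutation p = 0.0152), and the adjusted p in the limma fit over 306 assays was 0.000341. Both take the 7 undetermined wells at 40 minus the sample's U6 mean. With those wells missing the difference was 4.78 (exact permutation p = 0.1, the smallest possible there). After median centring tissue stood at 4.93 and 5.31 against 6.79, 6.93 and 7.03 in the stellate samples, a difference of 1.67 to 1.92. With wells at 40 this order, tissue before all sorted samples, was that of 24.2% of the 306 assays; for 2 of the 7 undetermined samples the bound at Ct 35 fell below 0 (lowest −1.06), so that no direction is set for them.

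rno-miR-219-1-3p was at 19.04 and 19.40 in tissue on the U6 scale, later than the 9 determined sorted wells at 14.26 to 18.58. The log2 difference, tissue minus sorted, was −1.89 ± 1.06 (SE), with an adjusted p of 0.135 in limma and p = 0.242 in the exact permutation test. In that fit 138 of 222 assays (62.2%) were higher in tissue and 3 (1.35%) lower, with a median difference of 3.02. After median centring, which brings that median to 0.03, tissue was at 11.29 and 11.30 against 3.55 to 8.69 in the determined sorted wells and 10.49 in the undetermined one, an order that 26.1% of the 222 assays shared. The difference was −4.88 ± 1.14 (adjusted p = 0.00466 in limma). Under this scaling 53 of 222 assays (23.9%) were higher and 56 (25.2%) lower, so rno-miR-219-1-3p was 1 of many called lower. Its determined wells had a mean raw Ct of 34.997 in tissue and 34.90 in sorted cells, both late and close to Ct 35. The scaled differences are therefore mainly those of the U6 mean and of the median Ct of the samples. The direction was the same under both scalings, and the call depended on the scaling and on the undetermined well of stellate sample 3: with that well taken as missing the U6-scaled difference was −2.21 (adjusted p = 0.0254), and without both sorted samples numbered 3 it was −2.31 (adjusted p = 0.0422).

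**Figure D3:**
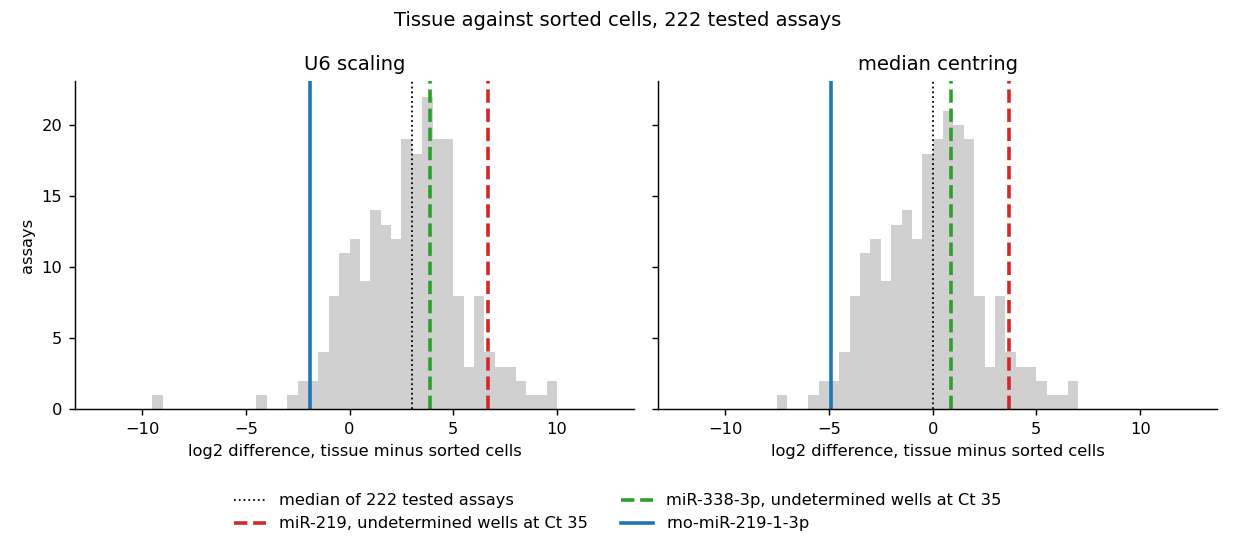
Histograms of the log2 difference, tissue minus sorted cells, over the 222 tested assays under U6 scaling (left) and median centring (right); the dotted line is their median, the solid line rno-miR-219-1-3p, and the dashed lines miR-219 and miR-338-3p with undetermined wells set to Ct 35, which makes them lower bounds. The 3 members keep their order in both panels, at 6.67, 3.87 and −1.89 on the left and 3.69, 0.88 and −4.88 on the right for miR-219, miR-338-3p and rno-miR-219-1-3p.

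Differences of Ct between assays within a sample need no scaling; priming and amplification differ between assays, so each is read across samples and not as a ratio of amounts. The comparisons of the miR-219 arms were chosen after their values were seen, so no p-value is given for them. rno-miR-219-1-3p minus miR-219 was 9.89 and 9.37 cycles in tissue. It was 1.44 in non-stellate sample 1 and 2.85 in non-stellate sample 3, and at most −0.82 to 1.74 in the 7 samples where miR-219 was undetermined and set to Ct 35; stellate sample 3 had neither assay. The lower of the tissue values exceeded the highest sorted value by 6.52 cycles. The determined wells of rno-miR-219-1-3p averaged Ct 34.997 in tissue and 34.90 in sorted cells, so this gap is mainly that of miR-219. Among sorted cells the difference was measured in non-stellate samples 1 and 3 only. rno-miR-219-1-3p minus rno-miR-219-2-3p, which compares the 3p arms of the hairpins, was 9.56 and 9.28 in tissue. It was −1.80 to 2.69 in the 4 sorted samples with both determined, and the gap was here mainly that of rno-miR-219-2-3p. rno-miR-219-2-3p minus miR-219 was 0.32 and 0.09 in tissue, and in sorted cells it lay on both sides of these values: 3.24 in non-stellate sample 1 and at least 2.94 in non-stellate sample 3, but at most −0.40, −3.29 and −2.26 in stellate samples 1 and 5 and non-stellate sample 2, where miR-219 was undetermined.

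**Figure D4:**
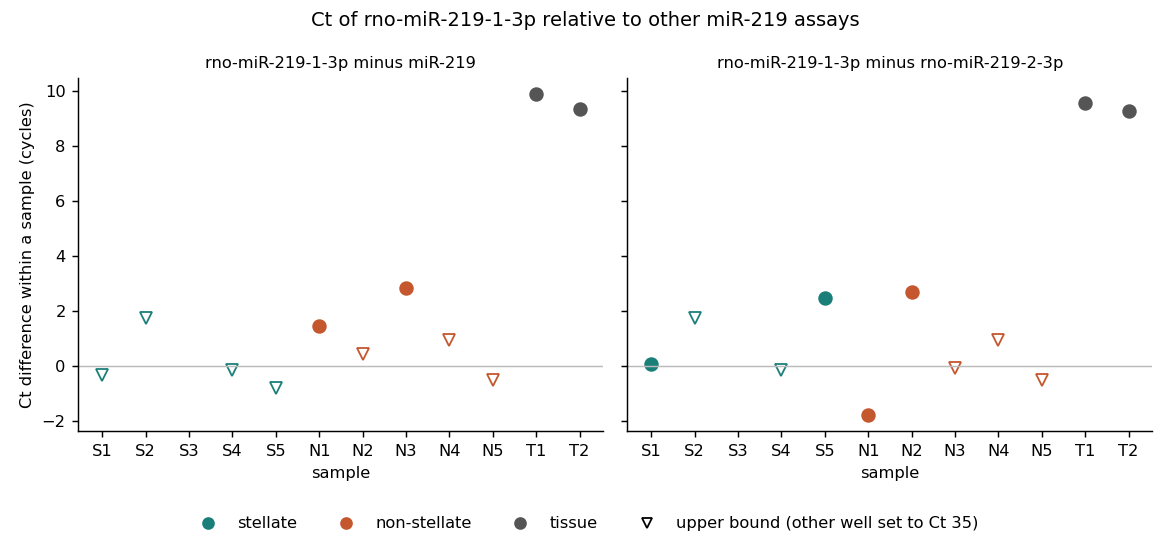
Ct of rno-miR-219-1-3p minus that of miR-219 (left) and of rno-miR-219-2-3p (right) in each sample (S, stellate; N, non-stellate; T, tissue), with open triangles for upper bounds where the second assay was undetermined and set to Ct 35; stellate sample 3 has no value. Tissue lies at 9.28 to 9.89 cycles and the sorted samples at or below 2.85.

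miR-338-3p minus miR-219, a Ct difference between assays of different families, was 3.52 and 3.37 cycles in tissue. No sorted sample had both determined. With wells at 40 the difference between tissue and sorted cells was 3.30 (exact permutation p = 0.515), and with wells at Ct 35 it was 2.80 (exact permutation p = 0.0455), so the test turned on the value given to undetermined wells. The stellate samples 1, 2 and 5 held miR-338-3p alone and the non-stellate samples 1 and 3 held miR-219 alone. With 3 and 2 of 10 sorted wells determined, a lack of overlap can easily arise, and it was not tested.

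The pattern of miR-219 and miR-338-3p, determined in both tissue samples and undetermined in at least 4 sorted samples, was that of 67 assays. Of the 153 assays undetermined in at least 4 sorted samples (40.8% of the 375), these 67 made up 43.8%. Another 66 were determined in neither tissue sample and 20 in 1. Ordered by mean tissue Ct, the 5 earliest of the 67 were miR-425 (24.4), miR-409-5p (24.8), miR-219 (25.4), rno-miR-219-2-3p (25.6) and miR-339-3p (25.8). miR-338-3p, at 28.8, ranked 23. Both miR-219 assays thus stood among the earliest tissue assays of those undetermined in at least 4 sorted samples.

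**Figure D5:**
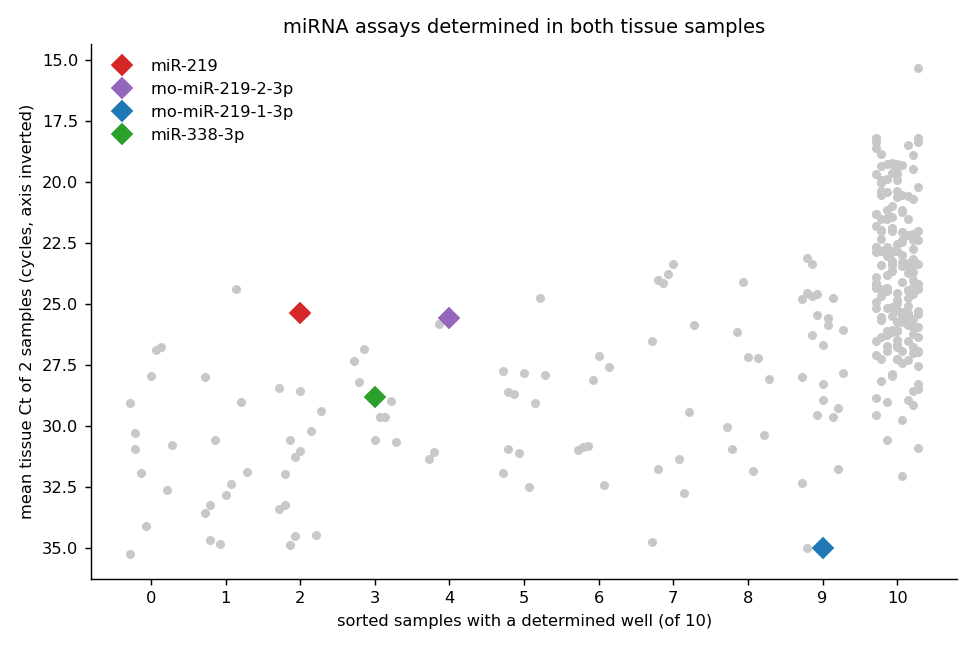
Mean tissue Ct (y axis inverted) against the number of the 10 sorted samples with a determined well, for each miRNA assay determined in both tissue samples; grey points are shifted sideways to part them. miR-219 (25.4) and rno-miR-219-2-3p (25.6) stand near the top of the assays undetermined in at least 4 sorted samples. miR-338-3p (28.8) stands lower, and rno-miR-219-1-3p (34.997) at the bottom among assays determined in 9 of 10.

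For rno-miR-219-1-3p, the 5 assays closest in pattern over the 12 samples, among the 176 determined in all, were miR-351, rno-miR-351, miR-17, miR-106a and miR-93. Their root mean square difference from it in median-centred, assay-centred Ct was 1.56, 1.60, 1.71, 1.71 and 1.72 cycles, against a median of 2.63 over the 176. The 5 were also later in tissue after median centring, by 2.59 to 3.79 cycles. Tissue was part of the pattern by which they were chosen, so this is not a separate result. Under this scaling tissue lay below all 10 sorted samples for 26.1% of the 222 tested assays.

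MicroRNAs linked to the oligodendrocyte lineage were counted from lists, of which the first also holds the 3 members and rno-miR-219-2-3p. Of 12 names tied to differentiation or myelin 10 were on the card and 5 were tested. Between stellate and non-stellate cells 0 of the 5 passed the adjusted threshold in limma and 1, rno-miR-219-1-3p, had an unadjusted p under 0.05. Against sorted cells 4 of the 5 rose in tissue on the U6 scale, among 62.2% of all assays tested: miR-146a by 3.80 (adjusted p = 0.000131), miR-138 by 4.42 (adjusted p = 0.00127), miR-7a by 3.22 (adjusted p = 0.00369) and miR-23b by 4.70 (adjusted p = 0.00615). The median of the 5, with rno-miR-219-1-3p among them, was 3.80 against 3.02 over all tested. After median centring 0 of the 5 were called higher and 1, rno-miR-219-1-3p, lower, against 23.9% higher and 25.2% lower over all assays tested. Among those not tested, miR-23a was determined in 0 of 10 sorted samples and miR-32 in 1, and both in the 2 tissue samples.

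Of 6 names tied to precursors or to the inhibition of maturation 5 were tested, with 0 passing between stellate and non-stellate cells. In tissue 2 of the 5 rose on the U6 scale, against 62.2% of all assays tested: miR-19b by 3.52 (adjusted p = 0.000303), a member of the cluster that also gives miR-17, and miR-9 by 3.16 (adjusted p = 0.0015), which is also abundant in neurons. The list's median was 1.03. After median centring 0 were higher and 3 lower in limma, against 23.9% and 25.2% of all assays tested: miR-17 fell by 3.79 (adjusted p = 8.9e-05), miR-92a fell by 4.09 (adjusted p = 8.9e-05) and miR-125a-3p fell by 1.96 (adjusted p = 0.0323).

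Markers of other cells were counted from lists as well, beside the shares over all assays tested. The 5 neuronal miRNAs, among them miR-124, were determined in all 10 sorted samples, and miR-138 and miR-9 of that list also stand in the lineage lists above. On the U6 scale, 5 of 5 neuronal, 4 of 4 vascular, 3 of 4 blood and microglial and 1 of 1 astrocyte miRNAs tested were higher in tissue, and of 4 choroid plexus and ependymal miRNAs 1 was higher and 1 lower; over all assays tested 62.2% were higher and 1.35% lower. After median centring the counts were 2, 2, 1 and 1 higher, and 1 higher with 2 lower for the choroid plexus and ependymal list, beside 23.9% higher and 25.2% lower over all assays tested. miR-451, the defining miRNA of red blood cells, was determined in 0 of 10 sorted samples and in both tissue samples. So was miR-142-5p of the same list, and so were assays outside it, among them miR-23a, miR-369-3p and miR-205. Between stellate and non-stellate cells none of these lists had a member past the adjusted threshold in limma. The part of these markers, and of RNA amount, in the members' differences was not tested.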

How the data were processed

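Small RNA of 12 samples was reverse transcribed with Megaplex primers, pre-amplified and read on a TaqMan rodent card of 384 wells. The raw table deposited by the authors holds Ct, a log2 scale, with 40 for undetermined wells; their deposited normalized table, also log2, equals Ct minus the mean of the 4 U6 wells (largest difference 7.1e-15). The authors' own comparison tables (fold changes and limma statistics) were not used. The latest determined Ct was 38.2, and the pooled SD of U6 wells was 0.366 cycles.

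The members, lists and tests were chosen with earlier results of these data known. Differences are minus differences in Ct. limma 3.58.1 in R 4.3.3 (lmFit, eBayes, two-sided, Benjamini-Hochberg, threshold 0.05) was fitted on 222 assays undetermined in at most 3 of 10 sorted samples, without a block, and was tested on simulated data. Fisher tests used SciPy 1.17.1, and exact permutation tests went through every split with NumPy 2.4.6. Members are always named; beside them the 5 assays closest in pattern or earliest in tissue, and at most 6 lineage miRNAs with the lowest p. Alternatives changed the scaling, undetermined wells, filter, block, comparator and samples. P-values of limma and the permutation tests rest on the spread between these samples. For miR-219 and miR-338-3p that spread mixes the few determined wells with the scaling of the samples. Sequences came from RefSeq (GRCr8). Assay primer sequences and card B were not used here.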

Additional observations from a re-analysis of the deposited data

Results flagged for a closer look

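Of 12 sets of group values tested for a sample far from the others, 1 met Dixon's criterion, against 0.6 by chance. It was miR-219 in stellate sample 3, at a median-centred Ct of 10.49, earlier than the other 4 stellate samples. All 5 stellate wells of miR-219 were undetermined, so the value is 40 minus the sample's median Ct and says nothing of miR-219.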

How the results depend on the processing

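Between stellate and non-stellate cells, miR-219 with wells at 40 (−4.11) was −4.51 by median centring, −4.44 by global mean scaling (exact permutation p = 0.0317) and −2.51 when capped at Ct 35 and median-centred; these passed the threshold, but 8 of 10 wells hold a constant minus the sample's scaling value, so no call on miR-219 rests on them. Leaving out 1 sample or replicate number gave −5.24 to −2.69, past the threshold without non-stellate sample 2 (−5.12) or 4 (−4.93). miR-338-3p was reversed by the cap at Ct 35 (−0.81) and by the cap with median centring (−1.20, chosen after seeing the data), where all 10 wells stand at about Ct 35 and the value is that of the sample scaling and not of miR-338-3p; leaving out samples gave 1.38 to 2.90, the latter without stellate sample 4 (exact p = 0.0238). rno-miR-219-1-3p kept its direction and stayed past no adjusted threshold under 30 alternatives (−2.83 to −1.09, adjusted p 0.181 to 0.991 in limma), and −2.83 to −1.52 on leaving out samples. Labelled and unlabelled cells came from 5 biological replicates, but nothing states that the numbers match: deviations of same-numbered samples from their group means correlated at 0.331, 0.119, 0.256, 0.155 and 0.0743 over 176 assays (mean of other pairs −0.0481), and 8 of 10 samples correlated best with their own number, a hint from the data. With the replicate block the difference of rno-miR-219-1-3p was −2.16 (adjusted p = 0.393 in limma) and the paired exact p of miR-219 and miR-338-3p was 0.125, or 0.0625 for miR-219 under median centring and global mean scaling, which without the pairing were past the threshold; 5 pairs cannot give a lower p. The number of assays called stayed 0 on leaving out samples and rose to 1 under global mean scaling with the replicate block.

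In tissue against sorted cells, miR-219 (10.67) was 4.17 (exact p = 0.333) and miR-338-3p (7.37) was 4.78 (exact p = 0.1) with undetermined wells missing, and miR-338-3p was 0.88 (exact p = 0.242) when capped and median-centred; fewer samples or a common Ct set these. Leaving out samples gave 10.2 to 11.4 and 7.003 to 7.74, and with 1 tissue sample p cannot fall below 0.0909. rno-miR-219-1-3p (−1.89, not called) was called lower by median centring (−4.88), global mean scaling (−4.57), the reference RNA Y1 (−5.40), missing wells (−2.21), the cap (−2.70), the cap with median centring (−5.69) and non-stellate cells as comparator (−2.98, adjusted p = 0.0355 in limma); leaving out samples gave −2.31 to −1.55. Its adjusted p over 21 alternatives ran from 1.2e-05 to 0.583. The number called, 141, was 97 to 151 on leaving out samples and 68 with Y1. miR-338-3p minus miR-219 was 2.80 when capped, and 2.64 to 4.26 on leaving out samples. Without determined stellate wells of miR-219 or non-stellate wells of miR-338-3p, the sorted comparison with missing wells gave no value, and no member passed a filter on wells determined in all samples. Depth limits the late wells: an undetermined well gives no level, and 142 wells were determined at Ct 35 or later.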
